A study of Mus musculus with 6 samples.

Results

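Fos, Fosb, Fosl2, Jun, Junb, Jund, Egr1, Atf3, Ier2 and Ier3 are 10 genes of the immediate early response, and their RNA levels were compared between colitis mice given berberine (BBR) and colitis mice given sulfasalazine (SASP). They were taken by gene symbol from a table of 18268 genes, and all 10 were present and tested. Jund, Fosl2 and Ier2 were higher in BBR mice, by 1.47 to 1.92 times as a ratio of group means. The other 7 did not pass the test. Of all tested genes 8.86% passed, in either direction. None of the 3 passed when BBR mouse 1 or any 1 of the SASP mice was left out. On the log2 scale Fos, Fosb, Jun, Egr1, Atf3 and Ier3 ranged further among the 3 BBR mice than the group means lay apart.

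Immediate early genes are switched on within minutes of a stimulus such as a growth factor, a cytokine, wounding or stress, by transcription factors already present in the cell. MAP kinase pathways act on these factors, chiefly SRF with its ELK partners, CREB and the ATF and JUN proteins. Fos proteins pair with Jun proteins to form AP-1, a basic leucine zipper (bZIP) dimer that binds DNA, and in the gut AP-1 takes part in the response to injury, in inflammation and in epithelial renewal. Most of these RNAs decay fast, so a tissue sample catches their level at the moment of collection, handling of the animal and tissue included.

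The mice were adult male C57BL/6 animals, with 3 in each group. All 6 had colitis from 7 days of DSS (dextran sulfate sodium), which damages the lining of the colon. The BBR group also received berberine, a plant alkaloid, for 6 days by gavage. The SASP group received sulfasalazine, an anti-inflammatory drug used in ulcerative colitis, for the same 6 days by the same route. RNA came from whole colorectal tissue, so fewer cells of a type and less RNA per cell cannot be told apart. Colitis mice without a drug and healthy mice were not analysed here, so each direction below is BBR relative to SASP only.

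Values are FPKM, read fragments scaled by transcript length and library size, which allow levels to be compared between genes. Depth was not given. It was estimated from 31 to 56 genes per mouse with a short transcript that were detected in that mouse only. Taking each of their values as 1 read put the depth at about 16400000 to 18200000 reads. The read counts of the members rest on that assumption. At that depth the lowest value of a member, 0.50 FPKM for Fosb, stood on about 34 reads, the lowest of Ier3 on about 98, and those of the other 8 on about 440 or more. Between 11518 and 12307 genes reached 1 FPKM per mouse. The colon epithelium markers summed to 6297 to 8882 FPKM in every mouse, with 1 of 10 higher in BBR mice and 1 lower, while Alb, Apoa1, Cpa1 and Prss2, genes of liver and pancreas, stayed at or below 0.35 FPKM. Among the same list Cela1 was at 130.16 to 260.94 and Ttr at 5.79 to 25.35. BBR mouse 3 stood apart: across genes its log2 values correlated with BBR mice 1 and 2 at r = 0.953 and 0.949, against 0.987 between those mice and 0.982 to 0.989 within the SASP group. The log2 fold change of each member is given with and without this mouse.

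Promoter sequences from RefSeq (GRCm38.p6, 250 bases before to 50 after the listed start) were at hand for Fos, Fosb, Fosl2, Jun, Junb, Jund, Atf3 and Ier3. Shown first are the promoters of Fosl2 and Jund, which were higher together in BBR mice, then those of Fosb and Atf3, which were highest in BBR mouse 3 and lowest in SASP mouse 2. All are written 5′ to 3′ on the strand of the gene. Capitals mark a match to the EGR motif GCGNGGGCG, the letters that Egr1 and its relatives are known to bind.
Fosl2, chr5:32136222-32136521, plus strand: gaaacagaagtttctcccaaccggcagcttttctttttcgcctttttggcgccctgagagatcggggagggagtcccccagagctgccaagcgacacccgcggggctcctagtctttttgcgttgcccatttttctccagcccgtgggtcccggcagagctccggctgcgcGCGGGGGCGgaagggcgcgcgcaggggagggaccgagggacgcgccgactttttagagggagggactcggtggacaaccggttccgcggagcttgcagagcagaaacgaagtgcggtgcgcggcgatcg
Jund, chr8:70697489-70697788, plus strand: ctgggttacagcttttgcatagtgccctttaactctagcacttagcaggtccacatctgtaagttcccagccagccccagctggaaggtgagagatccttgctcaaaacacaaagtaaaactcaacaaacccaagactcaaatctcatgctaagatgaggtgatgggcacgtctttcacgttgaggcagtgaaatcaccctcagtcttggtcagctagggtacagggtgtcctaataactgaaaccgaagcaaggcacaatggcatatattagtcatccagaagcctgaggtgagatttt
Fosb, chr7:19309996-19310295, minus strand: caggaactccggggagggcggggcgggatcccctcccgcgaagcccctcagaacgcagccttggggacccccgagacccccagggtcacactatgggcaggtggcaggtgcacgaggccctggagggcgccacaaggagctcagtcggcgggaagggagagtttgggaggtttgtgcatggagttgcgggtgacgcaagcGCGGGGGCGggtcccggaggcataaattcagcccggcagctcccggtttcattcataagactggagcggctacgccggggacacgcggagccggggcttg
Atf3, chr1:191183284-191183583, minus strand: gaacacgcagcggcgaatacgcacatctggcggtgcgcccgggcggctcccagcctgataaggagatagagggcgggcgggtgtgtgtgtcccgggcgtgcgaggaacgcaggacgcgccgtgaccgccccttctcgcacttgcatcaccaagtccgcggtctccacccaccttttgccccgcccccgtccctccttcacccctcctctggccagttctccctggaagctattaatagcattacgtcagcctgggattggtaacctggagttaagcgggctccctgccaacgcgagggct
The EGR letters began 79 bases before the start of Fosl2 and 50 bases before that of Fosb. Searched on both strands, they occurred in 5.6% of the 32544 promoters of the same length. The TATA box letters TATAAA, held by 13.6% of all promoters, were found in Fos and Junb. They began 33 bases before the start of Fos, but at the listed start itself in Junb, not upstream of it. No match in the 8 windows was found to the CRE TGACGTCA (1.8% of all promoters), the AP-1 site TGANTCA (7.79%), the STAT site TTCNNNGAA (8.33%) or the CArG box bound by SRF (1.64%). The motifs do not contain one another, and a match here is a run of letters, not a binding site. Only exact letters were searched, so near matches and sites outside these windows were not covered. The lack of a match is thus no sign that a promoter lacks such a site. Egr1 and Ier2 were not searched.

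**Figure D1:**
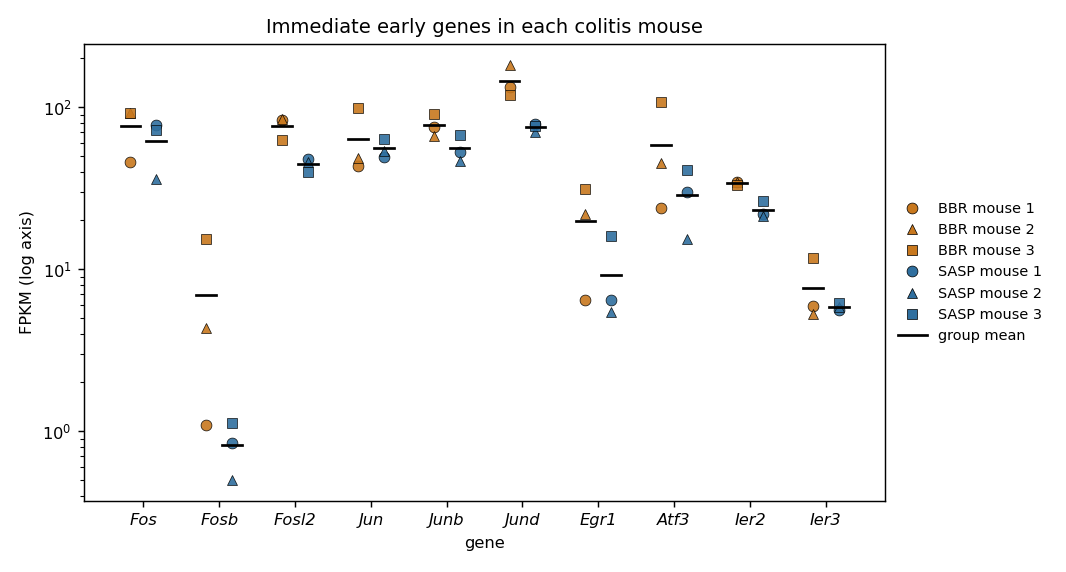
FPKM (log axis) of the 10 genes in each mouse, with orange for BBR, blue for SASP, the marker shape for the mouse number and a black line for the mean of a group of 3. For Jund, Fosl2 and Ier2 every BBR mouse lies above every SASP mouse, while for Fosb the BBR mice run from 1.09 to 15.29.

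With limma on log2(FPKM + 1), 3 of the 10 genes were higher in BBR mice and none lower at an adjusted p under 0.05, where 8.86% of all 12072 tested genes passed in either direction, 3.82% higher and 5.04% lower. At an unadjusted p of at most 0.05 there were 5 of 10, with Fosb and Junb added, against 31.8% of all tested genes. With all 6 mice weighted alike the 10 fold changes were above 0, as were 60.8% of all tested genes, but 5 of the 10 turned below 0 in other fits: Jun (-0.028 with median-ratio scaling, -0.26 without BBR mouse 3, -0.52 with a smooth muscle covariate), Fos (-0.037 without SASP mouse 2), Ier3 (-0.053 without BBR mouse 3, -0.18 with the covariate), and these 3 with Egr1 and Atf3 under array quality weights. The median log2 fold change of the 10 was 0.65, and that of all tested genes was 0.10. Without BBR mouse 3 they were 0.42 and 0.16, and with array weights, which weight BBR mouse 3 least, 0.11 and 0.12. The median-ratio scaling moved the median of all genes to -0.021 and that of the 10 to 0.52, and it turned the split of all calls from 461 higher and 608 lower to 498 higher and 1186 lower.

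Among the Fos proteins, which cannot pair with themselves and need a Jun partner, Fosl2 (Fra-2, gene 14284) was the one that rose. It stood at 83.52, 83.86 and 62.76 FPKM in BBR mice 1, 2 and 3, and at 48.05, 46.14 and 39.93 in SASP mice 1, 2 and 3. The lowest BBR mouse, mouse 3, lay above the highest SASP mouse. The means were 76.7 ± 12.1 and 44.7 ± 4.25 FPKM (SD, n = 3 each), and the log2 fold change was 0.76 (SE 0.15, 95% interval 0.41 to 1.10, adjusted p = 0.0291, limma). Without BBR mouse 3 it was 0.89 (adjusted p = 0.0032), and leaving out any other mouse in turn gave 0.68 to 0.81 with the call lost (adjusted p = 0.0727 to 0.124).

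Fos (gene 14281), the founding partner in AP-1, did not separate the groups. Its values were 45.94, 91.68 and 92.24 FPKM in BBR mice and 77.34, 35.82 and 72.67 in SASP mice. The lowest value was in SASP mouse 2 and the next lowest in BBR mouse 1, so both groups covered nearly the same range. The means of 76.6 ± 26.6 and 61.9 ± 22.7 FPKM (SD, n = 3 each) differed by 0.31 on the log2 scale (SE 0.37, 95% interval -0.57 to 1.19, adjusted p = 0.586, limma), and the difference was -0.037 without SASP mouse 2.

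Fosb (gene 14282), a relative of Fos with the same bZIP domain, had the lowest mean level of the 10 in both groups and, in BBR mice, the widest spread on the log2 scale. It was at 1.09, 4.31 and 15.29 FPKM in BBR mice and at 0.85, 0.50 and 1.12 in SASP mice. BBR mice 2 and 3 lay above all SASP mice, whereas BBR mouse 1 lay just under SASP mouse 3. The log2 fold change of 1.65 had a 95% interval of 0.07 to 3.22 and an adjusted p of 0.145 (limma, unadjusted p = 0.0428). The highest BBR mouse was 14.0 times the lowest, and without BBR mouse 3 the log2 fold change was 0.88. Fosl1 (Fra-1), the remaining Fos protein and not one of the 10, was too low to be tested, at 1.48 FPKM in BBR mouse 3 and at most 0.11 in the others.

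Of the Jun proteins, which can pair with each other as well as with Fos proteins, Jund (gene 16478) rose. Jund is known as the member present in resting cells, and it was at 132.21, 182.53 and 119.20 FPKM in BBR mice and at 79.00, 70.35 and 76.69 in SASP mice. All 3 BBR mice were above all SASP mice. The means were 145 ± 33.4 and 75.3 ± 4.48 FPKM (SD, n = 3 each), and the log2 fold change of 0.91 was the largest of the 3 calls (SE 0.17, 95% interval 0.51 to 1.30, adjusted p = 0.026, limma). It was 1.04 without BBR mouse 3 (adjusted p = 0.0057) and 0.73 without BBR mouse 2 (adjusted p = 0.0408). Without BBR mouse 1 or without any 1 SASP mouse it was 0.86 to 0.96 with adjusted p of 0.0722 to 0.109.

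Junb (gene 16477), often found with the growth-restraining side of AP-1, was at 74.98, 66.22 and 90.76 FPKM in BBR mice and at 52.76, 46.65 and 67.42 in SASP mice. The groups overlapped by a small margin, since SASP mouse 3 lay above BBR mouse 2. The log2 fold change was 0.47 (SE 0.17, adjusted p = 0.118, unadjusted p = 0.0293, limma) and 0.35 without BBR mouse 3. Jun (gene 16476), the founding Jun protein, was at 43.30, 48.69 and 99.32 FPKM in BBR mice and at 49.26, 53.93 and 63.50 in SASP mice. BBR mice 1 and 2 lay below all SASP mice and BBR mouse 3 above them all. Its log2 fold change was 0.10 (SE 0.30, adjusted p = 0.832, limma) with all mice and -0.26 without BBR mouse 3 (adjusted p = 0.147).

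In the GENCODE M21 annotation an exon of Junb overlaps Prdx2, one of Jun overlaps Junos and one of Jund overlaps Gm11175, each on the opposite strand. Whether reads were counted by strand was not given in the sources used here, so reads from these pairs cannot be told apart. Prdx2 had means of 92.7 and 87.6 FPKM in BBR and SASP mice.

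Summed over Fos, Fosb, Fosl1 and Fosl2, the Fos family stood at 130.65, 179.96 and 171.77 FPKM in BBR mice and at 126.31, 82.55 and 113.82 in SASP mice. The Jun family stood at 250.49, 297.44 and 309.28 FPKM in BBR mice and at 181.02, 170.93 and 207.61 in SASP mice. Neither sum overlapped between groups, as 37.9% of all tested genes did not, and the Jun sum was the higher in each mouse. For the Fos family the gap was narrow, from 126.31 in SASP mouse 1 to 130.65 in BBR mouse 1. The sums include Fosl2 and Jund, which did not overlap by themselves. Jund made up 52.8%, 61.4% and 38.5% of the Jun family in the BBR mice and 43.6%, 41.2% and 36.9% in the SASP mice, so the shares overlapped even though the level of Jund did not. In BBR mouse 3 the share of Jun was 32.1%, against 17.3% and 16.4% in BBR mice 1 and 2 and 27.2% to 31.6% in SASP mice. Fosl2 made up 63.9% of the Fos family in BBR mouse 1, 46.6% in mouse 2 and 36.5% in mouse 3, and from 35.1% to 55.9% in SASP mice.

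**Figure D2:**
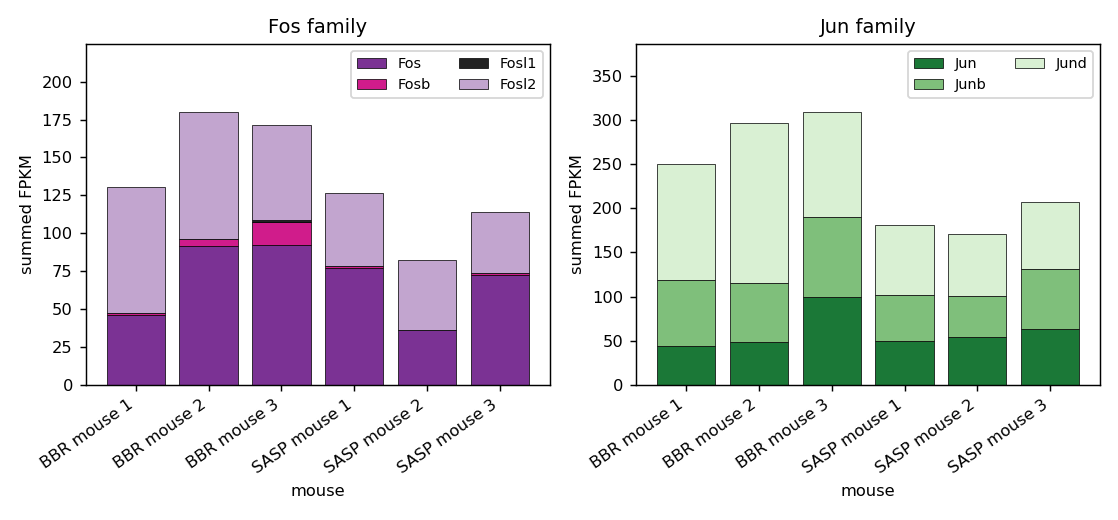
Summed FPKM of the Fos family (left) and the Jun family (right) in each mouse, with 1 colour for each gene. The BBR sums of the Jun family run from 250.49 to 309.28 FPKM and the SASP sums from 170.93 to 207.61, and Fosb is visible as a band mainly in BBR mouse 3.

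Egr1 (gene 13653), a zinc finger transcription factor, and Atf3 (gene 11910), a bZIP protein induced by stress that pairs with Jun proteins, varied within both groups. Egr1 was at 6.48, 21.98 and 31.11 FPKM in BBR mice and at 6.44, 5.43 and 15.92 in SASP mice. BBR mice 2 and 3 were above all SASP mice, and BBR mouse 1 was level with SASP mouse 1. Its log2 fold change was 0.92 (SE 0.59, 95% interval -0.48 to 2.32, adjusted p = 0.311, limma) and 0.49 without BBR mouse 3.

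Atf3 was at 23.75, 45.02 and 106.88 FPKM in BBR mice and at 30.10, 15.27 and 40.63 in SASP mice. BBR mouse 3 was more than double any SASP mouse, while BBR mouse 1 lay inside the SASP range. The log2 fold change was 0.85 (SE 0.56, adjusted p = 0.327, limma) and 0.29 without BBR mouse 3. Without BBR mouse 1, the log2 fold changes of Egr1 and Atf3 were 1.54 and 1.35 (adjusted p = 0.104 and 0.158, limma).

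Ier2 (gene 15936), an immediate early response protein of the cell nucleus, was the steadiest member in BBR mice. It was at 34.72, 34.48 and 32.85 FPKM in BBR mice and at 22.05, 21.23 and 26.22 in SASP mice. All BBR mice were above all SASP mice, and the highest BBR mouse was 1.06 times the lowest. The means were 34.0 ± 1.02 and 23.2 ± 2.68 FPKM (SD, n = 3 each), and the log2 fold change was 0.54 (SE 0.11, 95% interval 0.28 to 0.80, adjusted p = 0.035, limma). It was 0.56 without BBR mouse 3 (adjusted p = 0.0133). It was 0.48 to 0.63 without any other 1 mouse (adjusted p = 0.0896 to 0.148) and 0.41 with median-ratio scaling (adjusted p = 0.0593).

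Ier3 (gene 15937), a small stress-induced protein linked to cell survival, was at 5.96, 5.31 and 11.75 FPKM in BBR mice and at 5.62, 5.84 and 6.17 in SASP mice. Only BBR mouse 3 stood out, and the other 5 mice lay within 5.31 to 6.17. The log2 fold change was 0.26 (SE 0.26, adjusted p = 0.513, limma) and -0.053 without BBR mouse 3.

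**Figure D3:**
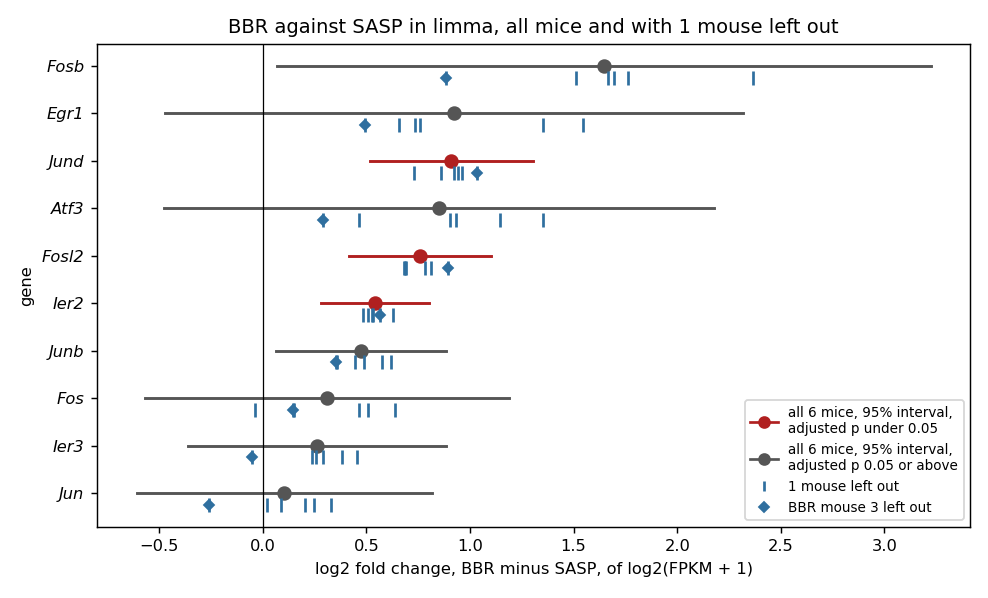
Log2 fold change (BBR minus SASP, of log2(FPKM + 1)) of each gene, with the 95% interval from limma over all 6 mice in red for the 3 genes that passed and grey for the 7 that did not. Blue marks below each give the value with 1 mouse left out, the diamond being BBR mouse 3, and the intervals of Jund, Fosl2 and Ier2 are the 3 narrowest.

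The groups of Jund, Fosl2 and Ier2 did not overlap, and those of the other 7 did. With 1 mouse left out, the share of all tested genes that passed was 1.1%, 3.13% and 33.8% without BBR mouse 1, 2 and 3, and 0.494%, 3.4% and 0.428% without SASP mouse 1, 2 and 3. Of all tested genes, 21.3% were higher in all BBR mice than in all SASP mice and 37.9% did not overlap in either direction. In BBR mice the order by mean FPKM was Jund, Junb, Fosl2, Fos, Jun, Atf3, Ier2, Egr1, Ier3 and Fosb. The values of neighbours in this order did not overlap between Jund and Junb or between Ier2 and Egr1, and overlapped in all the other neighbouring pairs. In SASP mice the order was Jund, Fos, Junb, Jun, Fosl2, Atf3, Ier2, Egr1, Ier3 and Fosb. Here the neighbours that did not overlap were Jun and Fosl2, Ier2 and Egr1, and Ier3 and Fosb.

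The spread between mice of 1 group set the members apart from one another. Over all tested genes the median SD of log2(FPKM + 1) was 0.22 in BBR and 0.13 in SASP mice. In BBR mice the SD of Fosb exceeded that of 99.5% of tested genes, those of Egr1 and Atf3 98.9% each, Jun 94.4%, Fos 92.2% and Ier3 91.4%. Jund (70.2%), Fosl2 (54.0%) and Junb (51.6%) lay nearer the middle, and Ier2 exceeded 3.5%. In SASP mice Egr1 (99.1%), Atf3 (98.8%) and Fos (98.1%) again had wide spreads, while Jund (30.4%) and Ier3 (16.5%) had narrow ones.

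The same mice were high or low for most members. BBR mouse 3 was the highest BBR mouse for Fos, Fosb, Jun, Junb, Egr1, Atf3 and Ier3, 7 of 10, and the lowest for Fosl2, Jund and Ier2, the 3 that passed. It was the highest BBR mouse for 22.8% of all tested genes. BBR mouse 1 was the lowest BBR mouse for Fos, Fosb, Jun, Egr1 and Atf3. SASP mouse 2 was the lowest SASP mouse for 7 of 10, where it was the lowest for 25.4% of all tested genes, and SASP mouse 3 was the highest for 7 of 10. The 10 genes summed to 452, 584 and 662 FPKM in BBR mice and to 371, 301 and 410 in SASP mice.

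**Figure D4:**
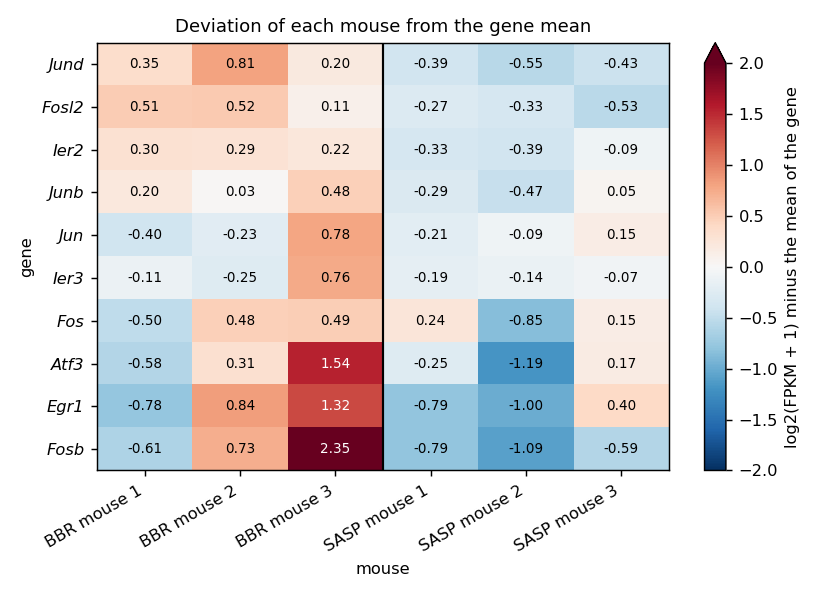
Log2(FPKM + 1) of each gene (rows) in each mouse (columns) minus the mean of the gene over the 6 mice, with red above and blue below the mean. The top 3 rows, Jund, Fosl2 and Ier2, are red in every BBR and blue in every SASP column, whereas Fosb reaches 2.35 in BBR mouse 3 and Egr1 is at -0.78 in BBR mouse 1.

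The likeness of 2 genes was measured as the root mean square difference of their centred log2(FPKM + 1) values over the 6 mice. Among 12062 tested genes outside the 10, the nearest to Fos were Dusp8 (0.23), a phosphatase of MAP kinases, Klf2 (0.26), a Krüppel-like transcription factor, Dusp22 (0.27), another phosphatase, Edn3 (0.28), an endothelin, and Csrnp1 (0.28), a nuclear protein. Dusp8 was at 2.41, 5.69 and 4.98 FPKM in BBR mice and at 3.09, 1.84 and 2.80 in SASP mice, with its lowest values in BBR mouse 1 and SASP mouse 2 as for Fos. Among the members Junb was nearest to Fos, at 0.44.

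Nearest to Egr1 was the member Atf3, at 0.35. Outside the 10 came Htr3a (0.42), a serotonin receptor channel, Ahi1 (0.44), a protein of the primary cilium, Tubb3 (0.45), a tubulin of neurons, Rgs1 (0.46), a brake on G protein signalling, and Calb2 (0.46), a calcium-binding protein of many enteric neurons. Htr3a was at 1.39, 5.18 and 8.62 FPKM in BBR mice and at 1.35, 2.76 and 2.93 in SASP mice. The 7 enteric neuron and glia markers, which include Tubb3, summed to 13.95, 32.41 and 48.56 FPKM in BBR mice 1, 2 and 3 and to 9.63, 22.15 and 19.9 in SASP mice. None of the 5 tested passed with limma (1 at an unadjusted p under 0.05), and the part of this marker level in Egr1 was not tested.

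Genes around the members in the pathway were read from 5 lists holding 131 genes, of which 114 were tested. With limma 9 were higher and 3 lower in BBR mice, or 10.5%, against the 8.86% of all tested genes. These calls rested on single mice. Without SASP mouse 1, and also without SASP mouse 3, 0 were higher and 1 was lower. Without BBR mouse 2, 1 was higher and 2 were lower. Of all tested genes, 0.494%, 0.428% and 3.13% passed in these 3 fits. Without BBR mouse 3, 49 of the list genes passed, where 33.8% of all tested genes did. By list, that fit called 4 of the other transcription factors, 16 of the other response genes, 11 of the bZIP proteins, 8 of the upstream genes and 10 of the feedback inhibitors.

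Among 16 tested immediate early transcription factors outside the 10, Nr4a1 rose and Myc fell, with a median log2 fold change of 0.18. Nr4a1 (Nur77), an orphan nuclear receptor, was at 3.71, 17.32 and 14.32 FPKM in BBR mice and at 1.78, 1.31 and 1.91 in SASP mice, so that even BBR mouse 1 lay above all SASP mice. Its log2 fold change was 2.05 (SE 0.48, adjusted p = 0.0472, limma). Myc, a driver of cell growth, was at 3.61, 3.29 and 3.78 FPKM in BBR mice and at 5.98, 8.35 and 7.77 in SASP mice, a log2 fold change of -0.87 (adjusted p = 0.023, limma). The next gene by p, the clock-linked repressor Bhlhe40, did not pass (log2 fold change 0.61, adjusted p = 0.0685, limma).

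Of 28 tested immediate early response genes of other kinds, 4 rose and 1 fell, and the median log2 fold change was 0.42. Trib1, a pseudokinase that directs proteins to degradation, was at 36.33, 66.87 and 47.26 FPKM in BBR mice and at 14.03, 9.99 and 13.48 in SASP mice (log2 fold change 1.89, SE 0.23, adjusted p = 0.0099, limma). F3, tissue factor of the clotting cascade, was at 42.09, 40.53 and 44.65 FPKM in BBR mice and at 23.93, 21.16 and 29.33 in SASP mice (log2 fold change 0.76). Lif, a cytokine of the interleukin-6 family, was at 0.49, 0.79 and 0.69 FPKM in BBR mice and at 3.36, 2.08 and 3.91 in SASP mice (log2 fold change -1.29, adjusted p = 0.0186, limma). The remaining genes that rose were Plk2, a stress-responsive kinase (0.99), and Btg2, a growth suppressor (0.89), named after their values were seen.

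Of 22 tested bZIP proteins that pair or compete with AP-1, Batf2 fell and Ddit3 rose, with a median log2 fold change of 0.14. Batf2, which pairs with Jun proteins and is known as an interferon-responsive gene, was at 13.23, 15.26 and 15.13 FPKM in BBR mice and at 57.87, 47.22 and 66.73 in SASP mice. The 2 groups lay far apart, with a log2 fold change of -1.90 (SE 0.14, adjusted p = 0.0018, limma). Ddit3 (CHOP), a stress-induced bZIP protein, had a log2 fold change of 0.50 (adjusted p = 0.0446), and Cebpa, a differentiation factor, had 0.61 (adjusted p = 0.0532) and did not pass.

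None of 29 tested kinases and factors upstream of the immediate early genes passed with limma, and 7 had an unadjusted p under 0.05. The 3 with the smallest p were Map2k7, a kinase that activates JNK (log2 fold change 0.50, adjusted p = 0.0712), Rps6ka2, a kinase downstream of ERK (0.52, adjusted p = 0.0873), and Elk1, a partner of SRF (0.38, adjusted p = 0.103).

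Of 19 tested feedback inhibitors of MAP kinase signalling and EGR corepressors, 3 rose and none fell, with a median log2 fold change of 0.37. Dusp3, a MAP kinase phosphatase, was at 15.33, 19.80 and 21.58 FPKM in BBR mice and at 7.54, 9.97 and 9.11 in SASP mice (log2 fold change 1.01, adjusted p = 0.0198, limma). Dusp4, another MAP kinase phosphatase, was at 2.50, 2.72 and 2.02 FPKM in BBR mice and at 0.65, 0.95 and 1.29 in SASP mice (0.81, adjusted p = 0.0385, limma). Nab2, which represses Egr proteins, was at 1.95, 3.51 and 2.89 FPKM in BBR mice and at 1.11, 1.32 and 1.18 in SASP mice (0.76, adjusted p = 0.0489, limma).

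**Figure D5:**
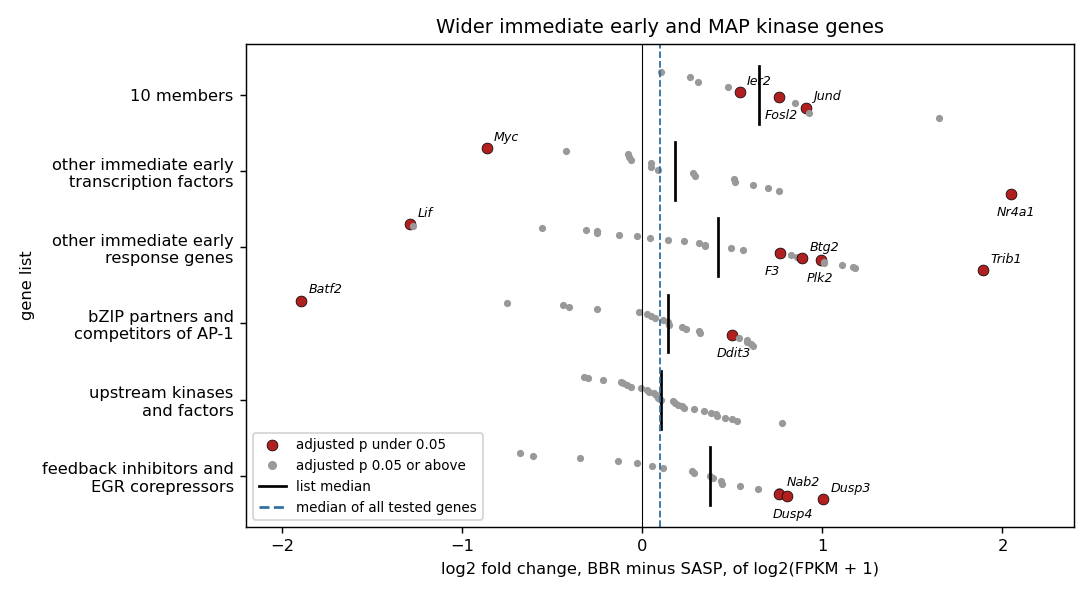
Log2 fold change (BBR minus SASP) of each tested gene in the 10 members and the 5 wider lists, with red for an adjusted p under 0.05, black lines for the median of each list and a dashed line for the median of all tested genes (0.10). Batf2 (-1.90) and Nr4a1 (2.05) lie at the ends, and no upstream kinase or factor is red.

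Markers of other cells also differed between the groups. Their part in the levels of the 10 genes was not tested, beyond a covariate fit that cannot separate it from the drug. The 14 smooth muscle markers summed to 3301, 3583 and 7644 FPKM in BBR mice and to 919, 2734 and 2054 in SASP mice. All 14 fold changes were above 0, with a median log2 of 1.22 (0.85 without BBR mouse 3), none passed with limma and 10 had an unadjusted p under 0.05. A covariate was then fitted, the mean log2(FPKM + 1) of these 14 markers in each mouse. The sums of these markers were higher in every BBR mouse than in every SASP mouse. This fit therefore cannot separate smooth muscle content from the drug. With the covariate the adjusted p of Jund, Fosl2 and Ier2 were 0.164, 0.123 and 0.224 (limma). Their log2 fold changes were 1.09, 1.01 and 0.55, none smaller than without it. Those of the other members went as follows with the covariate: Fosb from 1.65 to 0.55, Egr1 from 0.92 to 0.012, Atf3 from 0.85 to 0.28, Junb from 0.47 to 0.33, Jun from 0.10 to -0.52, Ier3 from 0.26 to -0.18 and Fos from 0.31 to 0.41. The median of the 10 was 0.37 with the covariate, and 19 of all tested genes passed.

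Fibroblast markers summed to 313 to 424 FPKM in BBR and 152 to 248 in SASP mice, and 4 of 9 rose. Endothelium markers summed to 23.21 to 39.66 and 12.98 to 18.01 FPKM, and 1 of 6 tested rose. Macrophage markers summed to 82.4 to 97.7 and 156 to 182 FPKM, and 1 of 8 tested, Cd14, fell. Without Cd14 the other 9 summed to 50.2 to 77.4 and 66.0 to 80.1 FPKM, which overlapped. Neutrophil markers overlapped at 192 to 568 and 357 to 536 FPKM, and 1 of 5 tested fell, S100a8, which was listed at 0, 0 and 6.19 FPKM in BBR mice and at 18.53, 20.64 and 23.14 in SASP mice. No list had a marker at 0 in all 6 mice, Mpo and Ngp of the neutrophil list staying at or below 0.05 FPKM. Without BBR mouse 3 the share of all tested genes that passed was 33.8%. The calls in that fit were 8 of 9 higher for fibroblast, 4 higher for endothelium, 4 lower for neutrophil and 1 lower for macrophage markers. Of the 11 heat shock genes 7 were called there, 1 of them higher. T cell markers summed to 4.41 to 6.85 and 3.33 to 6.76 FPKM and B and plasma cell markers to 78.0 to 189 and 59.9 to 100 FPKM, both with overlap between the groups. Some heat shock genes respond to tissue handling, as immediate early genes can. The 11 listed here summed to 871 to 1077 FPKM in BBR and 1414 to 1793 in SASP mice. Much of that sum was Hspa8, at 539.56 to 654.19 and 752.60 to 1175.41. Of these 11, 3 fell (Hsp90aa1 by 0.83, Hspe1 by 1.29 and Hspd1 by 1.37 on the log2 scale), the last pair being mitochondrial chaperones. The log2 fold changes of Hspb1 (1.40, adjusted p = 0.0607, limma), Hspa1b (0.66) and Hspa1a (0.30) were above 0 and did not pass, and Hspb1 did not overlap between groups, at 44.94, 46.91 and 108.10 FPKM in BBR mice and 16.06, 29.74 and 24.15 in SASP mice.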

How the data were processed

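RNA from colorectal tissue of 6 colitis mice, 3 given BBR and 3 given SASP, was sequenced. The authors depleted ribosomal RNA, filtered reads and estimated gene levels with Bowtie2 and RSEM, and deposited FPKM values, 1 column a mouse (0 columns belonged to other samples). The submitters' processing notes name Bowtie2 2.2.5, RSEM 1.2.12 and mm9. The GRCm38 reference served only for promoter sequences with their coordinates, exon overlaps and the transcript lengths behind the read estimates. The labels name an Illumina kit and the methods a nanoball sequencer. The annotation was not given in the sources used here.

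Genes with at least 1 FPKM in at least 3 mice (12072 of 18268) were tested on log2(FPKM + 1), with fold changes on that scale, which understates changes of low genes such as Fosb. limma 3.58.1 (lmFit, eBayes with trend) in R 4.3.3 gave two-sided p, Benjamini-Hochberg adjusted over all tested genes, with a threshold of 0.05. On simulated data of 11915 genes with 193 changed by 2 log2 units, 91.2% were recovered and 5.38% of calls were false. The simulation drew independent noise for each gene, with the same SD in both groups. It held no mouse that stood apart across genes, as BBR mouse 3 did. Its changes were also larger than the 0.54 to 0.91 of the member calls, so its rates do not carry over to them.

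The members and lists were chosen with earlier results of these data known. Named were all 10 members, up to 3 genes of each wider list with the smallest p, and the 5 genes nearest Fos and Egr1. Mouse numbers follow accession order and only name the mice. Every pair of mice had identical values in at most 0.389% of genes. Alternatives covered pseudocounts, filters, scaling, weights, a smooth muscle covariate and each mouse left out.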

Additional observations from a re-analysis of the deposited data

How the results depend on the processing

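No paired analysis was possible because the labels give the mice no replicate numbers shared between groups. The 3 calls among the 10 genes were also 3 with pseudocounts of 0.1 and 0.01, no filter, a mean of at least 5 FPKM, quantile normalization and no variance trend. Median-ratio scaling gave 2. Array quality weights gave 4, of which 3 were higher and 1, Jun, lower, where 7126 of all 12072 tested genes passed. These weights were 0.129 for BBR mouse 3 and 5.32 for BBR mouse 1. With the smooth muscle covariate limma called 0 (3 at an unadjusted p under 0.05), and an unadjusted threshold gave 5. Leaving out 1 mouse gave 0 to 3: 3 without BBR mouse 3, 1 without BBR mouse 2, and 0 without BBR mouse 1 or any SASP mouse, where 3 to 6 had an unadjusted p under 0.05. Of all tested genes, 33.8% passed without BBR mouse 3, 3.13% without BBR mouse 2 and 1.1% without BBR mouse 1. The shares without SASP mouse 1, 2 and 3 were 0.494%, 3.4% and 0.428%.

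Of all tested genes, 1069 passed. The count was 591 with no filter, 1737 with quantile normalization, 1684 with median-ratio scaling, 7126 with array weights, 19 with the covariate, 3837 at the unadjusted threshold and 51 (without SASP mouse 3) to 4018 (without BBR mouse 3) with 1 mouse left out. The 12 calls of the wider lists became 6 with no filter, 7 at a mean of at least 5 FPKM, 72 with array weights, 0 with the covariate (25 at an unadjusted p under 0.05, limma), 38 at the unadjusted threshold and 1 to 49 with 1 mouse left out.

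The direction turned for Fos (-0.42 with array weights, -0.037 without SASP mouse 2, up to 0.64 without BBR mouse 1), Jun (-0.028 with median-ratio scaling, -0.43 with array weights at an adjusted p of 0.0161 from limma, -0.52 with the covariate, -0.26 without BBR mouse 3, up to 0.33 without BBR mouse 1), Egr1 (-0.68 with array weights), Atf3 (-0.41 with array weights) and Ier3 (-0.017 with array weights, -0.18 with the covariate, -0.053 without BBR mouse 3, up to 0.45 without BBR mouse 2). Fosl2, Jund, Ier2, Junb and Fosb kept their direction in every alternative run. The cause was not tested. About 34 and 98 reads stood behind the lowest values of Fosb and Ier3, the fewest of the 10.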
